A study of Mus musculus with 18 samples.

Results

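A set of 10 genes of the endothelial barrier, the lining of blood vessels that controls what passes between blood and tissue, were followed in cortex and skull of mice after ischemic injury: Cldn5, Ocln, Tjp1, Cdh5, Esam, Pecam1, Mfsd2a, Abcb1a, Slco1a4 and Plvap. They were chosen by name, as 10 of the 25918 gene names in the table of counts, with earlier results of these data known. The shares of all genes given beside their counts are thus not those of a list chosen blind. All 10 were expressed at a testable level in both tissues. All libraries came from BALB/c mice. Cortex came from controls and from mice at day 2 and day 6 after ischemic injury, and skull, taken as the interparietal bone, came from controls and from mice at day 2 and day 4, with 3 libraries in each of the 6 groups (18 libraries). Per the labels, the tissue taken held the ischemic and the peri-ischemic region. The treatment labels name ischemic injury in brain for cortex and ischemic injury in skull for skull. They leave unsaid whether both tissues met the same injury. The labels give neither what the controls underwent nor age or sex, and leave unsaid whether the libraries of a group are different animals, so p-values measure the spread between these libraries, which may be technical.

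In most organs small molecules leave the blood between or through endothelial cells, whereas the endothelium of the brain seals its cell contacts with tight junctions, suppresses vesicle transport and pumps many compounds back into the blood. Cldn5 encodes the main claudin of these junctions, Ocln encodes occludin, a membrane protein of the same strands, and Tjp1 encodes ZO-1, the scaffold beneath them. Cdh5 encodes VE-cadherin, the adherens junction cadherin of all endothelium, and Esam and Pecam1 encode adhesion molecules of endothelial contacts that platelets carry too, Pecam1 also being found on leukocytes. Mfsd2a carries lysophospholipids and restrains vesicle transport, Abcb1a encodes the efflux pump P-glycoprotein, and Slco1a4 encodes an organic anion transporter. Plvap forms the diaphragms of fenestrae and caveolae and is known as a mark of leaky vessels that mature brain endothelium largely lacks. Bone marrow, which lies inside the skull, is drained by thin-walled sinusoids with no such barrier.

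Promoter windows, from 250 bases before to 50 after the transcription start, were found in RefSeq tables of GRCm38.p6 for 6 of the 10 genes: Cldn5, Ocln, Tjp1, Mfsd2a, Abcb1a and Slco1a4. The windows of Cldn5 and Abcb1a are shown because these genes rose in cortex and fell in skull at day 2, and that of Slco1a4 because this gene did neither beyond the test. They were searched on both strands for the ETS core AGGAAG, the TCF/LEF core CTTTGNT and the NF-kB site. Capitals mark matches, CTTCCT being AGGAAG read on the other strand. The windows are Cldn5 at chr16:18776597-18776896 on the plus strand, Abcb1a at chr5:8566841-8567140 on the plus strand and Slco1a4 at chr6:141856171-141856470 on the minus strand, each printed 5′ to 3′ along its gene. The RefSeq start of Abcb1a lies far upstream of the GENCODE start of the gene at 8660077, so its window belongs to a distant alternative start, and which start was used in these tissues was not tested.
Cldn5: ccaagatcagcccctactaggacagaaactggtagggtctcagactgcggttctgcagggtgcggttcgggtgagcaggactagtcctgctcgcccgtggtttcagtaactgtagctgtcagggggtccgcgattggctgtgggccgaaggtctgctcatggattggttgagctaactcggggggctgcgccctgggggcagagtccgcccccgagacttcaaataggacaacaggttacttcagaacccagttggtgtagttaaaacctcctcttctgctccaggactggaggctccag
Abcb1a: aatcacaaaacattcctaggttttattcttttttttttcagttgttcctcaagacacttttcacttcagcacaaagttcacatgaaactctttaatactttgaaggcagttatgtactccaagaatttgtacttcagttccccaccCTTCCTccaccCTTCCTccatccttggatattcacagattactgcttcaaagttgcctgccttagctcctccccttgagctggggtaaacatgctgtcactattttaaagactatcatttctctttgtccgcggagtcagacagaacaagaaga
Slco1a4: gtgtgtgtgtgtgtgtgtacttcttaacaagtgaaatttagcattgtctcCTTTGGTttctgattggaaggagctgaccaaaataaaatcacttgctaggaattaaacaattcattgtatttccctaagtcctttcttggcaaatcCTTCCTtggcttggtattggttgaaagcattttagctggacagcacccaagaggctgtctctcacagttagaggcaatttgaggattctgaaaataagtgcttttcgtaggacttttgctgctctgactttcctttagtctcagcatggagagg

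The Abcb1a window held 2 ETS cores, starting 104 and 93 bases before that upstream start. The Slco1a4 window held 1 ETS core, 104 bases before the start of Slco1a4, and 1 TCF/LEF core, 200 bases before it. Mfsd2a held 1 TCF/LEF core, 156 bases before its start, and the windows of Cldn5, Ocln (2 start sites) and Tjp1 held no match to any of the 3 motifs. Of 32851 mouse promoters of the same length, 35.4% held the ETS core, 18.6% the TCF/LEF core and 0.4% the NF-kB site, so that the matches are a description of these windows and mark no binding. Base composition differed between the printed windows, with 58.3% G and C and 12 CpG sites for Cldn5 against 40.3% and 2 for Abcb1a and 40.7% and 1 for Slco1a4, the median over all promoters being 52.7% and 7 sites.

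In the GENCODE annotation of GRCm38, the build that mm10 names, Cldn5 is a gene of a single exon on chromosome 16 from 18776847 to 18778262. Plvap lies on chromosome 8 from 71497765 to 71511752, Cdh5 on the same chromosome from 104101625 to 104144511 and Pecam1 on chromosome 11 from 106654217 to 106750628. All 10 genes are protein coding. Abcb1a, on chromosome 5 from 8660077 to 8748575, shares 553 exonic bases with Gm42686, a gene model on the opposite strand, and since the strand setting of the counting is not given in the sources used here, reads of the 2 cannot be told apart.

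Total counts per library ran from 13005050 to 27654269. The markers of each tissue were as labelled, with neuron genes such as Syt1 and Snap25 higher in control cortex and osteoblast genes such as Sp7 and Alpl higher in control skull. Skull libraries also held neuron transcripts: the summed level of 7 neuron genes was 910 (replicate 1), 496 and 751 CPM (counts scaled to library size, with TMM normalisation within each tissue) in skull controls, against 48.3 to 146 at day 2 and 94.8 to 132 at day 4. The sum of 7 choroid plexus genes in skull was 8.86 to 21.7 CPM in controls but 111 to 8007 CPM at day 2 and 405 to 2780 CPM at day 4, so that skull libraries of 1 group stood far apart in choroid plexus RNA. These values are given again below beside the genes they touch. In whole tissue, fewer cells of a type and less RNA per cell cannot be told apart.

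The uninjured tissues differed in 8 of the 10 genes, near the share of all 18173 genes tested that were called (70.9%). On a scale set over the 6 control libraries, Mfsd2a stood at 15.0 ± 1.19 CPM in cortex and 1.54 ± 0.63 in skull (SD, n = 3 each), a 9.7-fold difference, and Slco1a4 at 51.2 ± 2.23 against 22.9 ± 2.21. Plvap stood at 13.6 ± 0.88 CPM in cortex and 125 ± 15.3 in skull, Cdh5 at 13.4 ± 0.50 and 116 ± 9.07, Pecam1 at 18.4 ± 0.57 and 221 ± 31.0, Abcb1a at 24.3 ± 2.11 and 64.5 ± 0.54 and Esam at 16.1 ± 4.48 and 49.0 ± 7.32. Thus 2 members were higher in cortex, where 34.5% of all 18173 genes tested were called higher, and 6 were lower, where 36.4% were called lower (edgeR's quasi-likelihood test, Benjamini-Hochberg adjusted p below 0.05). The median over the members was -0.83 on the log2 scale, that over all genes -0.03. Cldn5, at 27.9 ± 0.90 CPM in cortex and 23.3 ± 1.56 in skull, and Ocln, at 7.03 ± 0.73 and 6.29 ± 0.44, were not called (adjusted p = 0.0507 and 0.43). The sixth lower member, Tjp1, was lower in cortex by 0.25 on the log2 scale with an adjusted p of 0.0424, and was called in 4 of 12 alternatives (adjusted p from 0.0308 to 0.167); it was not called without cortex control replicate 1 (adjusted p = 0.0559), 2 (adjusted p = 0.167) or 3 (adjusted p = 0.0628), nor without skull control replicate 1 (adjusted p = 0.0926) or 3 (adjusted p = 0.105). Cldn5 was called higher in cortex in 3 of 12 alternatives, with adjusted p from 0.0467 to 0.155.

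Other genes found in all endothelium stood with Cdh5 in this contrast: 17 of 18 were lower in control cortex, among them Egfl7, Tek, Tie1 and Clec14a, and 6 of 6 caveola genes were lower, led by Cavin2, Cavin1, Ehd2 and Cav1, with a median of -3.58. Of 12 other transporters of the brain barrier, 4 were higher in cortex and 6 lower; Slco1c1, a thyroid hormone transporter, was higher by 2.93 ± 0.38 on the log2 scale (SE), and the glucose transporter Slc2a1 by 0.55 ± 0.18, whereas the efflux pump Abcg2 differed by -2.32 ± 0.15. Relative to Cdh5 in the same library, Cldn5 stood at 1.05 ± 0.10 in cortex controls and -2.32 ± 0.08 in skull controls (log2 of the ratio of counts, SD), and Mfsd2a at 0.15 ± 0.07 and -6.30 ± 0.78. Plvap to Cdh5 differed by less than the spread between libraries, at 0.02 ± 0.14 in cortex and 0.10 ± 0.06 in skull.

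Per kilobase of exon, the level of Cldn5 was the highest of the 10 in cortex controls at 19.5 ± 0.64 CPM per kb (SD, n = 3), followed by Tjp1 at 15.7 ± 1.40 and Slco1a4 at 7.92 ± 0.36. Plvap (6.80 ± 0.44), Mfsd2a (6.60 ± 0.51) and Esam (5.59 ± 1.56) overlapped, Abcb1a at 4.40 ± 0.39 lay within the range of Esam, and Cdh5 (3.18 ± 0.12), Pecam1 (2.94 ± 0.09) and Ocln (1.65 ± 0.17) came last. In skull controls the order of levels was another: Plvap led at 61.2 ± 8.53 CPM per kb, then Pecam1 at 34.4 ± 5.39 and Cdh5 at 26.9 ± 2.54, whose libraries overlapped. Tjp1 (18.2 ± 0.23), Esam (16.6 ± 2.78) and Cldn5 (16.0 ± 1.21) overlapped in part, and Abcb1a (11.4 ± 0.18), Slco1a4 (3.46 ± 0.28), Ocln (1.45 ± 0.11) and Mfsd2a (0.661 ± 0.264) stood apart below them.

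**Figure D1:**
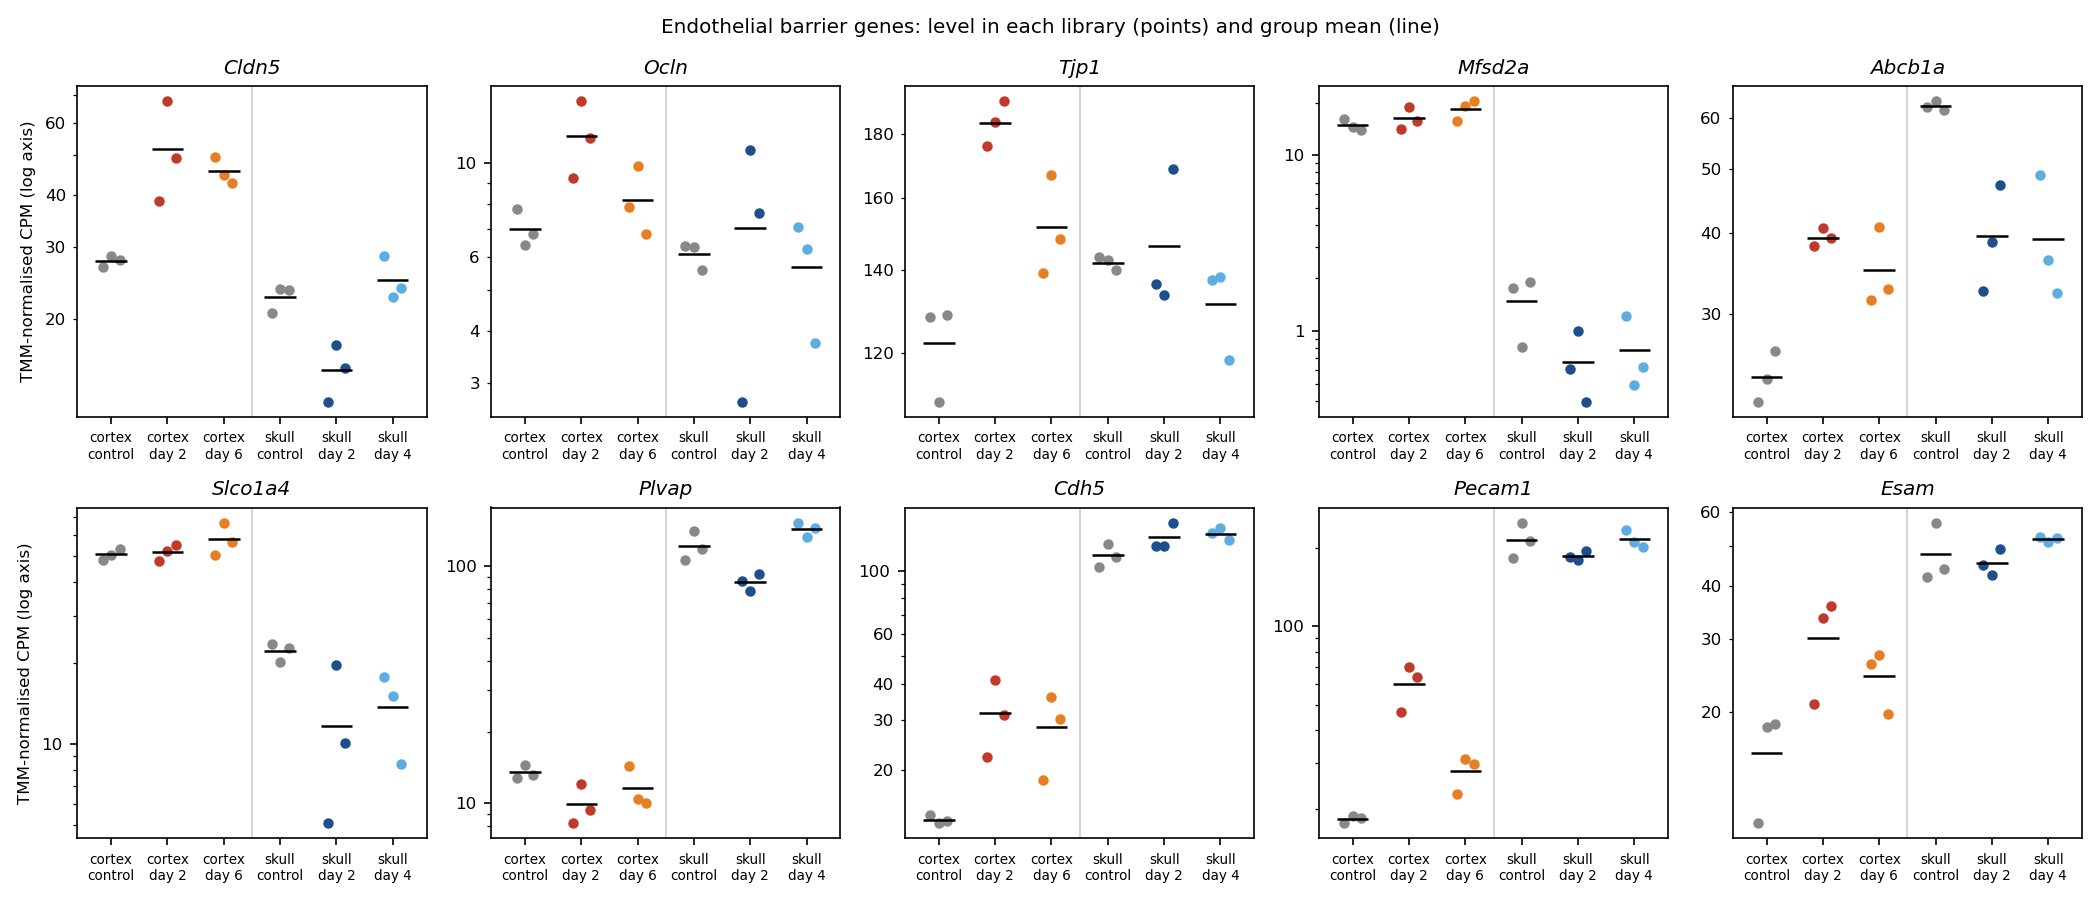
Each panel plots 1 gene, with the level in TMM-normalised CPM on a log axis for the 18 libraries (points, replicates 1 to 3 from left to right within a group) and the group mean (line). CPM were normalised within each tissue, so that the grey line divides scales set apart; in cortex, Pecam1 rose from 17.7–18.8 CPM in controls to 47.1–69.7 at day 2, and Plvap did not.

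At day 2 the cortex held more RNA of the junction genes. Pecam1 was 3.29-fold and Cdh5 2.36-fold higher than in controls, Cldn5 and Esam were 1.88-fold higher, Ocln 1.66-fold and Tjp1 1.5-fold, and the pump Abcb1a was 1.63-fold higher. Mfsd2a, Slco1a4 and Plvap were not called. In the same libraries 6 of 7 neuron genes fell, with a median of -0.56, and their sum was 8892 to 11134 CPM in controls and 6296 to 7087 at day 2; the part of a smaller neuron share in the rise of vessel genes was not tested. Thus 7 of 10 members rose, where 14.7% of the 18151 genes tested rose, and none fell, where 9.99% did; at an unadjusted p below 0.05, 7 were higher and 1 lower, and DESeq2 and limma voom each called 7 higher and 0 lower. The median change of the members was 0.72 on the log2 scale and that of all genes 0.00035.

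Cldn5 measured 26.7, 28.5 and 27.8 CPM in the cortex controls (replicates 1, 2 and 3) and 38.8, 67.7 and 49.2 at day 2. All day 2 libraries lay above all controls, and they spread far more widely. The log2 change was 0.91 ± 0.16 (SE, adjusted p = 0.00121). Ocln rose from 7.78, 6.39 and 6.78 CPM to 9.24, 14.1 and 11.5, a log2 change of 0.73 ± 0.21 (adjusted p = 0.0178). The groups did not overlap, but Ocln was not called without control replicate 2 (adjusted p = 0.0759), control replicate 3 (adjusted p = 0.0618) or day 2 replicate 2 (adjusted p = 0.0799), and over its 13 alternatives adjusted p ran from 0.00525 to 0.0799. Day 2 replicate 2, the library highest in Ocln, also held a choroid plexus sum of 217 CPM, against 10.5 and 11.9 in the other day 2 libraries and 21.1 to 34.9 in controls; whether this has a part in the level of Ocln, an occludin of epithelia as well, was not tested. Tjp1 went from 128, 109.6 and 129 CPM to 176, 184 and 191, with a log2 change of 0.59 ± 0.10 (adjusted p = 0.000665). Its groups stood clearly apart.

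Cdh5 measured 13.9, 13 and 13.2 CPM in controls and 22.1, 41.3 and 31.2 at day 2, a log2 change of 1.24 ± 0.26 (adjusted p = 0.00494). The lowest day 2 library still lay above every control. Esam went from 10.9, 18.4 and 18.8 CPM to 20.9, 33.6 and 35.9 (log2 change 0.91 ± 0.24, adjusted p = 0.0189); the groups did not overlap, yet the call was lost without day 2 replicate 2 (adjusted p = 0.0700) or replicate 3 (adjusted p = 0.0592), with adjusted p from 0.0012 to 0.0700 over 13 alternatives. Pecam1 changed most of the 10, from 17.7, 18.8 and 18.4 CPM to 47.1, 69.7 and 63.9, a log2 change of 1.72 ± 0.15 (adjusted p = 5.47e-06). Leukocytes and platelets carry Pecam1 too, and their markers rose in the same libraries: the sum of 7 leukocyte genes was 23.6 to 29.8 CPM in controls and 273 to 424 at day 2, with 7 of 7 called higher, and the sum of 6 platelet genes was 4.27 to 8.40 and 9.24 to 18.2, with 1 of 4 tested called higher (Pf4). The part of these cells in the rise of Pecam1 and Esam was not tested. Among the day 2 libraries, replicate 1 was the lowest in all 10 members, Abcb1a, Slco1a4, Mfsd2a and Plvap included.

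The transporters parted. Abcb1a went from 22.1, 23.9 and 26.3 CPM to 38.1, 40.6 and 39.2, with no overlap and a log2 change of 0.71 ± 0.12 (adjusted p = 0.000793). Slco1a4 measured 48.5, 50.7 and 53.2 CPM in controls and 47.9, 52.2 and 55.1 at day 2, and the groups overlapped throughout (log2 change 0.03 ± 0.11, adjusted p = 0.896). Mfsd2a measured 16.2, 14.5 and 13.9 CPM and then 14.1, 19.0 and 15.7, which overlapped as well (log2 change 0.13 ± 0.16, adjusted p = 0.61). Plvap was the single member with a lower estimate: it measured 12.8, 14.5 and 13.2 CPM in controls and 8.25, 12.1 and 9.37 at day 2. Every day 2 library lay below every control, but the change of -0.45 ± 0.19 did not pass the test (adjusted p = 0.104); it did without day 2 replicate 2, at -0.61 and adjusted p = 0.0488, and over 13 alternatives adjusted p ran from 0.0488 to 0.273.

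The genes around these members gave the following counts at day 2 in cortex, in lists drawn up with earlier results of these data known. Of 18 further genes of all endothelium, 14 rose and 0 fell (16 and 1 at an unadjusted p below 0.05), with a median of 1.04; Vwf, the von Willebrand factor, rose by 2.40 ± 0.18, Ecscr by 2.28 ± 0.32, Mmrn2 by 1.79 ± 0.30 and Kdr, the main receptor of VEGF, by 1.31 ± 0.21. Of 13 other tight junction genes tested, 3 rose, among them Cgnl1 by 1.37 and Lsr by 1.28, and of 8 adherens junction genes 2 rose, the catenin Ctnna1 by 0.78 ± 0.11 and the endothelial phosphatase Ptprb by 0.52 ± 0.12. Among 12 other barrier transporters 8 rose and 1 fell: the lactate transporter Slc16a1 rose by 1.24 ± 0.09, the glutamine transporter Slc38a5 by 1.81 ± 0.25, Slc2a1 by 0.80 ± 0.13 and the pump Abcc4 by 0.80 ± 0.14, while the transferrin receptor Tfrc fell by 0.46.

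Caveolae are the membrane pits through which Plvap vessels carry cargo, and 5 of 6 caveola genes rose, with a median of 1.31: Cav1 by 1.72 ± 0.16, Ehd2 by 2.03 ± 0.20, Cavin1 by 1.77 ± 0.20 and Cav2 by 0.90 ± 0.13. Wnt signalling maintains the brain barrier, and 7 of 17 genes of that programme rose and none fell (11 and 0 at an unadjusted p below 0.05), among them Apcdd1, Tnfrsf19, Lrp5 and the transcription factor Foxf2 (1.11 ± 0.25). Of 6 sprouting genes tested 4 rose (Esm1, Nid2, Angpt2 and Pgf), and of 7 genes of inflamed endothelium 6 rose, the leukocyte ligand Icam1 from 1.41 ± 0.54 to 13.1 ± 3.78 CPM. Among 11 mural cell genes 2 rose, Kcnj8 and Abcc9. Mural and fibroblast genes share vessels with endothelium, and several caveola genes are expressed by them too. The fibroblast sum was 85.8–171 CPM in cortex controls; it reached 245–457 CPM by day 2 and then 414–1726 CPM by day 6, with 2 of 6 fibroblast genes called higher at day 2 (5 at an unadjusted p below 0.05, median 2.01) and 4 of 6 at day 6 (median 3.62). The mural sum ran from 309 to 321 CPM in controls and 325 to 440 at day 2. The part of these cells in the caveola genes was not tested.

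**Figure D2:**
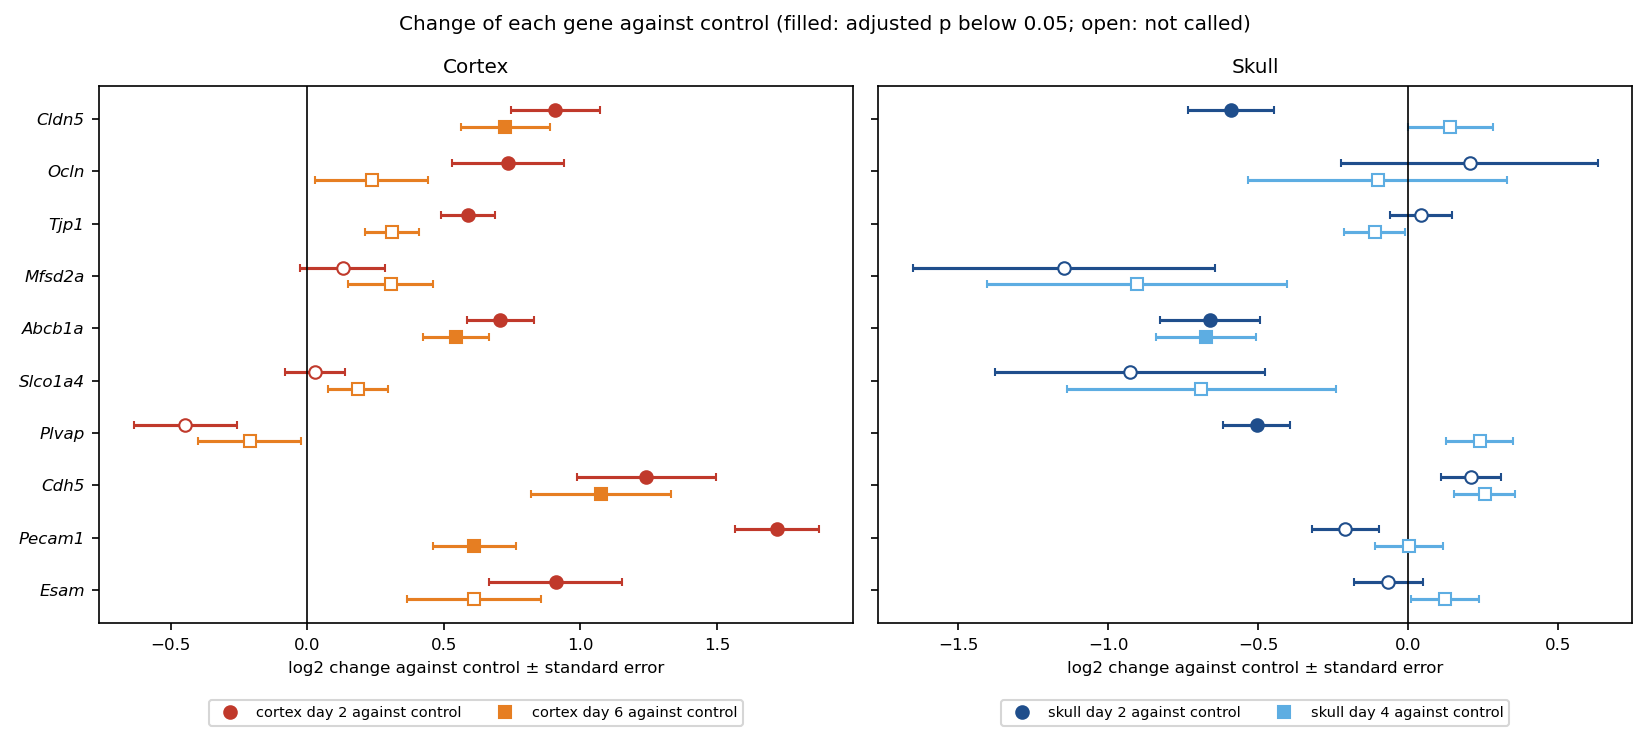
Log2 change of each gene against the controls of its tissue (x axis) with its standard error (bars), for cortex at days 2 and 6 (left) and skull at days 2 and 4 (right), filled where the adjusted p was below 0.05. In cortex 7 genes at day 2 and 4 at day 6 lay to the right of 0 and were called, and in skull 3 at day 2 and 1 at day 4 lay to the left.

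At day 6 in cortex, Cldn5, Abcb1a, Cdh5 and Pecam1 were called higher, 4 of 10 members where 7.93% of genes were called higher, and none was called lower, where 2.38% were; at an unadjusted p below 0.05, 6 were higher and 0 lower, DESeq2 called 5 higher and limma voom 3. The members' median was 0.43 and that of all genes -0.02. This comparison and that at day 2 share their 3 controls.

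Cldn5 measured 49.6, 44.7 and 42.8 CPM at day 6, each above every control, with a log2 change of 0.73 ± 0.16 (adjusted p = 0.0113), and was called in each of its 13 alternatives. Abcb1a measured 31.6, 40.8 and 32.9 CPM, also clear of the controls (0.54 ± 0.12, adjusted p = 0.0104), and was not called without day 6 replicate 2 (adjusted p = 0.0701, the highest of 13 alternatives, the lowest being 0.000927). Cdh5 measured 18.5, 35.9 and 30.0 CPM, higher than controls in 3 of 3 libraries with a 2.11-fold change (1.08 ± 0.26, adjusted p = 0.0222). Its call was lost without control replicate 2 (adjusted p = 0.0879), control replicate 3 (adjusted p = 0.0846), day 6 replicate 2 (adjusted p = 0.0870) or day 6 replicate 3 (adjusted p = 0.0788), with adjusted p from 0.00018 to 0.0879 over 13 alternatives. Pecam1 measured 22.9, 31.2 and 29.9 CPM, again above all controls (0.61 ± 0.15, adjusted p = 0.0201). Its call was lost without control replicate 2 (adjusted p = 0.0619), control replicate 3 (adjusted p = 0.0644), day 6 replicate 2 (adjusted p = 0.108) or day 6 replicate 3 (adjusted p = 0.0889) and with limma voom (adjusted p = 0.0608), over a range from 0.00385 to 0.108.

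Tjp1 measured 139, 167 and 148 CPM, above the controls in 3 of 3 libraries, but was not called (0.31 ± 0.10, adjusted p = 0.0634); in 5 of 13 alternatives it was, including that without day 6 replicate 1 (adjusted p = 0.0472), over a range from 0.0347 to 0.273. Ocln measured 7.87, 9.88 and 6.78 CPM, which overlapped the controls (0.24 ± 0.21, adjusted p = 0.542), and Esam stood at 26.1, 27.4 and 19.8 CPM (0.61 ± 0.24, adjusted p = 0.152), all above the controls. Mfsd2a (15.7, 19.0 and 20.4 CPM), Slco1a4 (50.4, 66.7 and 56.3 CPM) and Plvap (14.4, 10.4 and 10.1 CPM) overlapped their controls, with log2 changes of 0.31 ± 0.16, 0.19 ± 0.11 and -0.21 ± 0.19 and adjusted p of 0.254, 0.328 and 0.549.

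Set directly against day 2, 1 of 10 members was lower at day 6, where 6.26% of genes were lower, and none was higher, where 5.3% were (3 and 0 at an unadjusted p below 0.05, and 1 and 0 with DESeq2 and with limma voom). This was Pecam1, which fell 2.15-fold, by 1.11 on the log2 scale (SE 0.15, adjusted p = 0.000691), and the day 6 libraries all lay below those of day 2. The change was called in each of 13 alternatives. Beside it, the neutrophil genes S100a8 and S100a9 changed by -2.71 and -4.60, Ptprc, found on all leukocytes, fell by 0.61 and the macrophage gene Lyz2 rose by 2.39, while the leukocyte sum was 484 to 1723 CPM at day 6; their part in the fall of Pecam1 was not tested. The members' median was -0.17, that of all genes -0.02. Of the 18 further endothelial genes, 1 was higher (Cd34, by 0.78) and 2 lower (Vwf by -1.47 and Mmrn2 by -1.02), and 3 of 6 caveola genes were lower (Cav2, Ehd2 and Cav1, by -0.68, -0.87 and -0.67).

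At day 6 against controls, 6 of the 18 further endothelial genes were higher (Erg, Ecscr, Vwf and Tie1 first, by 1.45, 1.65, 0.93 and 1.11). Among the 12 transporters 6 were higher and 1 lower, with Slc16a1 at 0.96 ± 0.09 and Slco2b1, an organic anion transporter also found in microglia, at 1.24 ± 0.14, and Tfrc at -0.44. Of 6 caveola genes 3 were higher (Cav1 1.05, Ehd2 1.16 and Cavin1 1.16), of 17 Wnt genes 5 (Tnfrsf19, Foxf2, Apcdd1 and Lrp5 first), and of 11 mural genes 4 (Anpep, Cspg4, Pdgfrb and Rgs5). None of the 13 tight junction or 8 adherens junction genes was called by edgeR, with 3 of each higher and 0 lower at an unadjusted p below 0.05.

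In skull at day 2, 3 of 10 members fell, where 16.6% of the 17450 genes tested fell: Cldn5 1.51-fold, Abcb1a 1.58-fold and Plvap 1.42-fold. None rose, where 17.8% of genes rose; at an unadjusted p below 0.05, 4 were lower and 0 higher, and DESeq2 and limma voom each called the count of 3 lower and 0 higher. The median of the members was -0.36 and that of all genes -0.01.

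Cldn5 measured 20.7, 23.7 and 23.6 CPM in skull controls and 12.6, 17.3 and 15.2 at day 2. Each day 2 library lay below each control, and the change was -0.59 ± 0.14 (adjusted p = 0.0116). Plvap went from 107, 139.9 and 118 CPM to 86.5, 78.2 and 92.4, again with no overlap (-0.50 ± 0.11, adjusted p = 0.00722). Abcb1a went from 62.4, 63.6 and 61.6 CPM to 32.6, 38.7 and 47.3 (-0.66 ± 0.17, adjusted p = 0.0136), so that tight controls stood above a wide day 2 group. Each of the 3 was called in each of 13 alternatives.

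Cdh5 measured 103, 124 and 112 CPM in controls and 122, 122 and 148 at day 2, and the groups overlapped (0.21 ± 0.10, adjusted p = 0.135). Pecam1 measured 182, 249 and 211 CPM and then 184, 179 and 194 (-0.21 ± 0.11, adjusted p = 0.177), overlapping too; it was called lower without control replicate 1 (adjusted p = 0.0394), in 1 of 13 alternatives with adjusted p up to 0.587. Esam (42.1, 56.7 and 44.0 CPM, then 45.0, 42.5 and 49.1) and Tjp1 (143, 142 and 139.9 CPM, then 136, 134 and 169) overlapped their controls, with changes of -0.07 ± 0.11 and 0.04 ± 0.10. In skull the markers of platelets and leukocytes were far above those of cortex, at 297 to 320 and 1537 to 2219 CPM in controls, and at day 2 were 223 to 414 and 2465 to 2803 CPM; their part in the level of Pecam1 was not tested.

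Slco1a4, Ocln and Mfsd2a were the members with the widest spread in skull. Slco1a4 measured 23.6, 20.2 and 22.8 CPM in controls and 5.08, 19.8 and 10.1 at day 2. All day 2 libraries were lower, but replicate 2 nearly reached the controls, and the change of -0.93 ± 0.45 was not called (adjusted p = 0.146); without day 2 replicate 2 it was -1.54 with adjusted p = 0.0181, the lowest of 13 alternatives, the highest being 0.293. Ocln went from 6.38, 6.34 and 5.59 CPM to 2.71, 10.8 and 7.62, on both sides of the controls (0.21 ± 0.43, adjusted p = 0.738). In these 3 libraries the choroid plexus sum was 111, 8007 and 1626 CPM, in the same order as Slco1a4 and Ocln. Cldn5, which was called lower, had this order too. Whether such an order of 3 libraries is more than chance was not tested. The transcript of transthyretin, Ttr, made up much of the sum. Mfsd2a measured 1.75, 0.81 and 1.91 CPM, or 26, 12 and 28 reads, in controls, and 0.609, 0.999 and 0.394 CPM, or 9, 15 and 6 reads, at day 2 (-1.15 ± 0.50, adjusted p = 0.105). It was called lower without control replicate 2 (adjusted p = 0.0442), in 1 of 13 alternatives reaching up to 0.276.

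Neuron genes were set beside Mfsd2a and Slco1a4, neither of which was called in skull at day 2 or day 4. The percentages that follow set CPM of skull against CPM of cortex, which were normalised apart, and are approximate. In skull controls Mfsd2a stood at 10.01% of its level in cortex controls, and Slco1a4 at 43.7%, whereas neuron genes stood between 4.65% (Slc17a7) and 8.57% (Snap25). At day 2 these became 4.49% for Mfsd2a and 22.9% for Slco1a4, with neuron genes between 0.256% (Gad2) and 1.85% (Snap25), and 7 of 7 neuron genes fell. By control library, the neuron sum was lowest in replicate 2, which was also lowest in Mfsd2a and Slco1a4. At day 2 the neuron sum was 48.3, 137 and 146 CPM (replicates 1, 2 and 3), and neither gene had that order. At day 4 it was 132, 94.8 and 110 CPM, an order that Mfsd2a had and Slco1a4 did not. The part of brain RNA in the skull values of Mfsd2a, Slco1a4, Ocln and the other members was not tested.

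**Figure D3:**
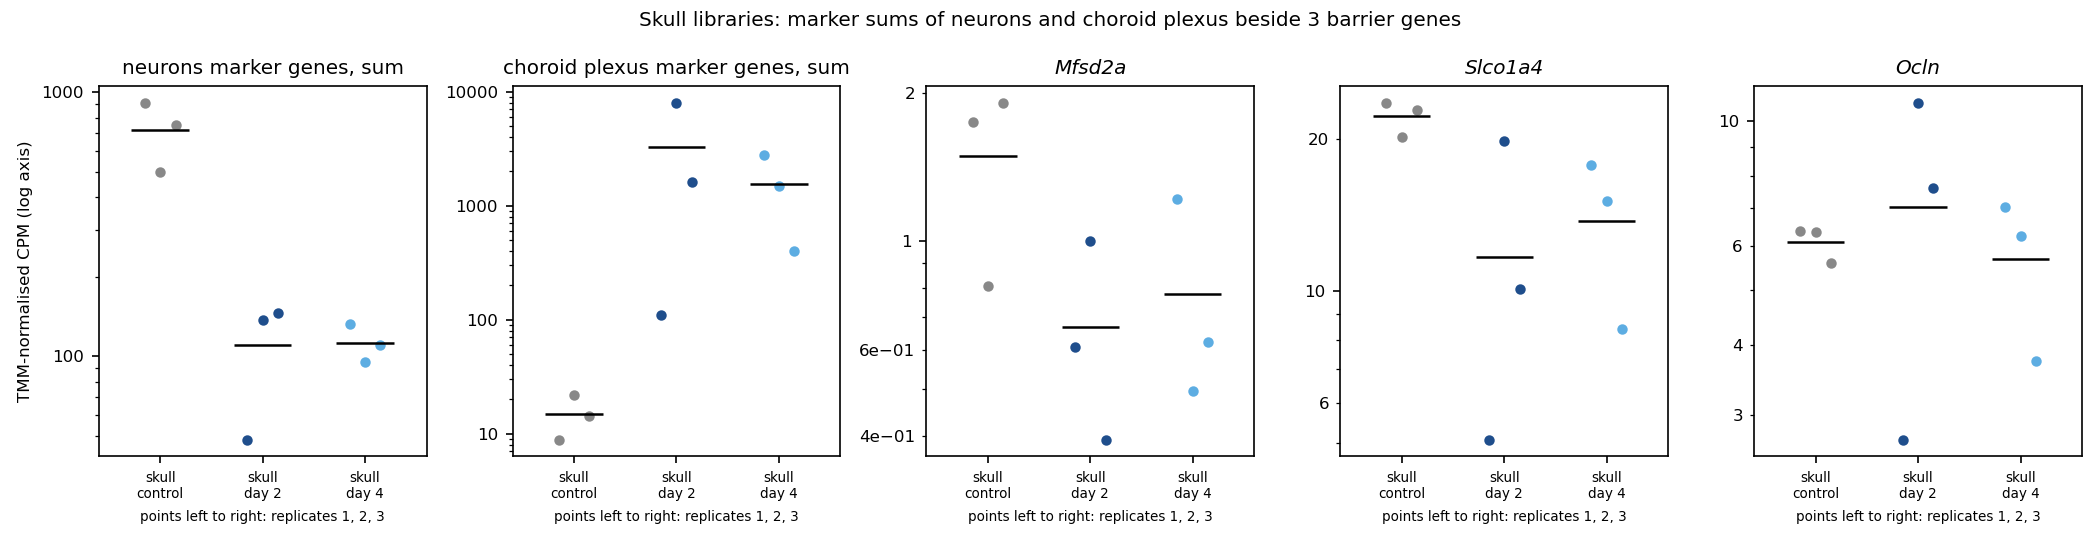
Skull libraries alone, with TMM-normalised CPM on log axes: the sums of 7 neuron and 7 choroid plexus marker genes beside Mfsd2a, Slco1a4 and Ocln, points being replicates 1 to 3 from left to right and lines group means. The neuron sum was 496–910 CPM in controls and 48.3–146 after injury. Within each injured group Slco1a4 and Ocln had the same order of libraries as the choroid plexus sum. Cldn5 at day 2, and Abcb1a and Pecam1 at day 4, had it too (not drawn here).

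Around the members, 0 of 18 further endothelial genes rose and 6 fell at day 2 in skull (1 and 7 at an unadjusted p below 0.05): Clec14a by -1.12 ± 0.15, Egfl7 by -0.49 ± 0.08, Vwf by -1.29 ± 0.19 and Mmrn2 by -0.70 ± 0.13 came first, and their median was -0.17. The junction gene Jam2 fell by 0.91 and Cldn12 rose by 0.44, 1 of 12 tight junction genes in each direction, and 3 adherens junction genes fell (Ptprb by -1.04, Afdn and Jup) while Nectin2 rose. Transporters split into 5 higher and 4 lower of 12, with Slc2a1 up by 1.09 ± 0.20 and Slco2b1 down by -1.13 ± 0.17. Of 7 sprouting genes 5 rose, Apln from 6.58 ± 1.07 to 66.7 ± 4.50 CPM, and Nid2, Kcne3 and Esm1 by 0.84, 1.72 and 1.87. Among the sinusoidal genes Stab2, a scavenger receptor, fell by 1.03, 1 of 4 tested. Of 12 mural genes 6 fell and 2 rose (Cspg4 and Anpep), and of 6 caveola genes Ehd2 rose by 0.50 and Cavin2 fell by 0.56. Wnt genes were 2 higher (Wnt7b and Foxf2) and 5 lower of 15, with Nkd1 at -0.97 and Lrp5 at -0.67.

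At day 4 in skull, 1 of 10 members was lower, where 4.79% of genes were, and none was higher, where 5.83% were (1 and 1 at an unadjusted p below 0.05, and 1 and 0 with DESeq2 and limma voom). The lower member was Abcb1a, at 48.9, 36.3 and 32.3 CPM, below every control (-0.67 ± 0.17, adjusted p = 0.0347). The call was made in 7 of 13 alternatives, with adjusted p from 0.0027 to 0.125. Among the alternatives that lost it were those without control replicate 1 (adjusted p = 0.0694), 2 (adjusted p = 0.0546) or 3 (adjusted p = 0.111), and those without day 4 replicate 2 (adjusted p = 0.118) or 3 (adjusted p = 0.125). The members' median was -0.05 and that of all genes 0.02.

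Plvap stood at 153, 133 and 145 CPM at day 4, which overlapped the controls (0.24 ± 0.11, adjusted p = 0.195), and Cldn5 at 28.5, 22.6 and 23.7 CPM, likewise (0.14 ± 0.14, adjusted p = 0.569). Cdh5, at 136, 142 and 128 CPM, lay above the controls in 3 of 3 libraries but was not called (0.26 ± 0.10, adjusted p = 0.133). Pecam1 (233, 211 and 201 CPM) and Esam (52.5, 51.0 and 52.0 CPM) fell within the range of controls, Ocln (7.05, 6.26 and 3.74 CPM) overlapped it, and Tjp1 (137, 138 and 118 CPM) lay just below (-0.11 ± 0.10, adjusted p = 0.525). Slco1a4 measured 17.7, 15.1 and 8.41 CPM, below the controls (-0.69 ± 0.45, adjusted p = 0.363), and Mfsd2a 1.22, 0.494 and 0.623 CPM, or 19, 6 and 8 reads (-0.90 ± 0.50, adjusted p = 0.274). The choroid plexus sum was 2780, 1489 and 405 CPM in these libraries, once more in the order of Slco1a4 and Ocln. Abcb1a and Pecam1 had this order too, and Cldn5 did not. In the same libraries 7 of 7 neuron genes were lower than in controls.

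From day 2 to day 4 in skull, 2 of 10 members rose, where 10.6% of genes did, and none fell, where 11.1% did (2 and 0 at an unadjusted p below 0.05, and with DESeq2 and limma voom). Cldn5 rose by 0.73 ± 0.14 (adjusted p = 0.00726) and Plvap by 0.74 ± 0.11 (adjusted p = 0.00214). For each, the libraries of day 4 lay above those of day 2 in 3 of 3, and the call held in 13 of 13 alternatives. The members' median was 0.20 and that of all genes 0.02. Of the 18 further endothelial genes 8 rose and 0 fell (10 and 1 at an unadjusted p below 0.05), led by Tie1 (0.75), Clec14a (1.00), Mmrn2 (0.91) and Vwf (1.19), and of 4 sinusoidal genes 2 rose, Stab2 by 1.62 and Gpr182 by 0.67. Markers of other cells rose in the same comparison: 4 of 6 megakaryocyte and platelet genes (median 1.14), which share Vwf with endothelium, 4 of 7 leukocyte genes, with 1 lower, and 4 of 12 mural genes, with 1 lower. Their part in the endothelial counts was not tested. Against controls, edgeR called none of the 18 endothelial genes at day 4, with 2 higher and 0 lower at an unadjusted p below 0.05.

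The difference between the day 2 responses was tested as an interaction over the 12 libraries of controls and day 2. Since the labels name injury in brain for cortex and in skull for skull, tissue and site of injury cannot be told apart. For 5 of 10 members the response was higher in cortex than in skull, where 14% of 18863 genes were called so, and for none lower, where 3.6% were (7 and 0 at an unadjusted p below 0.05, 7 and 0 with DESeq2 and with limma voom). They were Pecam1, by 1.98 ± 0.20 on the log2 scale (adjusted p = 8.95e-05), Cldn5, by 1.55 ± 0.25 (adjusted p = 0.00199), Abcb1a, by 1.42 ± 0.17 (adjusted p = 0.000316), Cdh5, by 1.08 ± 0.25 (adjusted p = 0.013), and Tjp1, by 0.60 ± 0.15 (adjusted p = 0.017). Over all genes the median of this contrast was 0.20, or 0.13 with the median-of-ratios factors of DESeq2, and that of the 10 members was 1.06. Cldn5 and Abcb1a rose in cortex and fell in skull, each with no overlap of libraries in either tissue.

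Esam, at 1.03 ± 0.33, missed the threshold (adjusted p = 0.0508) and was called in 5 of 18 alternatives, among them that without cortex day 2 replicate 1 (adjusted p = 0.0142, the lowest of a range up to 0.112). Mfsd2a (1.34 ± 0.46, adjusted p = 0.065) was called in 3 of 18, among them those without skull control replicate 2 (adjusted p = 0.00946) or skull day 2 replicate 2 (adjusted p = 0.0367), with p up to 0.169. Slco1a4 (1.01 ± 0.47, adjusted p = 0.165) was called in 2 of 18, one of them without skull day 2 replicate 2 (1.62, adjusted p = 0.00553), with p up to 0.282. Tjp1 was lost in 1 of 18, without cortex control replicate 2 (adjusted p = 0.0510, the highest of a range from 0.00562). Plvap showed no such difference at this precision (0.11 ± 0.20, adjusted p = 0.744), its estimates being lower than control in both tissues. Among the lists, the response was higher in cortex for 13 of 18 endothelial genes (Vwf by 3.74, Clec14a by 1.96) and 5 of 6 caveola genes (Cav1 by 1.88), and lower for none of either, also at an unadjusted p below 0.05. Markers of other cells were called higher too: 7 of 7 leukocyte genes (median 3.17), 4 of 6 fibroblast (2.09), 6 of 12 mural (0.93) and 4 of 7 neuron genes (3.10), with 0 lower in each list. The neuron genes fell more in skull than in cortex at day 2. Of 7 choroid plexus genes 0 were called (median -4.50). The part of these cells in the contrast was not tested.

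Levels in whole tissue mix the amount of endothelium with its state, and a ratio to another gene does not part them. Each member was also set against Cdh5 in the same library, as log2 of the ratio of counts with 0.5 added to both. Cdh5 itself rose 2.36-fold in cortex at day 2, so the ratio also falls for a member that kept its level. The changes of Slco1a4 and Mfsd2a there were 0.03 and 0.13 on the log2 scale. Whether Cdh5 per cell changed was not tested. With 3 libraries against 3, an exact permutation test (two-sided) cannot give less than 0.1, and none of the 36 such comparisons could pass. In cortex at day 2, Plvap to Cdh5 measured -1.42, -1.77 and -1.73 against -0.11, 0.16 and 0.00 in controls. It stood at 31.7% of the control ratio, a difference of -1.66, with no overlap (exact p = 0.1). Slco1a4 to Cdh5 was at 44.5% and Mfsd2a to Cdh5 at 47.5% of control, both with no overlap (exact p = 0.1 each). Cldn5 to Cdh5 was 0.81, 0.71 and 0.66 against 0.94, 1.13 and 1.07, or 79.9% of control, and Pecam1 to Cdh5 was higher, at 142% of control. Tjp1 (65.8%) and Ocln (71.8%) to Cdh5 also lay below control with no overlap (exact p = 0.1 each). Abcb1a (71.5%) and Esam (82.3%) overlapped their controls.

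The choice of denominator set the size of these values. With the mean of Cdh5, Tek, Tie1 and Robo4, all genes of endothelium at large, the differences at day 2 in cortex were -1.35 for Plvap, -0.86 for Slco1a4, -0.77 for Mfsd2a and 0.81 for Pecam1, and for Cldn5 -0.02. At day 6 in cortex Plvap to Cdh5 stood at 42.0% of control, with -0.36, -1.78 and -1.57 in the 3 libraries. Slco1a4 and Mfsd2a to Cdh5 stood at 55.7% and 60.7%, also clear of the controls (exact p = 0.1 each), and Cldn5 to Cdh5 overlapped its controls (81.2%, exact p = 0.4). The junction genes Ocln (57.2%), Tjp1 (61.0%) and Pecam1 (74.7%) were likewise below control with no overlap (exact p = 0.1 each). Abcb1a (71.4%) and Esam (76.5%) overlapped.

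In skull at day 2 the mean ratio to Cdh5 of every other member stood below control. Cdh5 itself changed by 0.21 on the log2 scale at day 2 and by 0.26 at day 4 (neither called). The medians over all genes were -0.01 and 0.02, so the ratio also falls for a gene that kept its level. Plvap stood at 61.3%, Cldn5 at 57.2% and Abcb1a at 54.2%, each with no overlap (exact p = 0.1). Slco1a4 (39.4%), Pecam1 (75.5%), Esam (83.3%) and Tjp1 (88.7%) did not overlap either (exact p = 0.1 each). Mfsd2a (39.8%) and Ocln (86.2%) overlapped. The share of all genes with such a ratio, in skull or in cortex, was not counted. With the 4-gene denominator the differences of Plvap, Cldn5 and Abcb1a shrank from -0.71, -0.81 and -0.88 to -0.23, -0.33 and -0.41. That of Slco1a4 went from -1.34 to -0.87, and those of Tjp1, Pecam1 and Esam turned to 0.31, 0.0737 and 0.22. Tek and Tie1 fell in skull at day 2 whereas Cdh5 did not, by -0.58 ± 0.12 and -0.42 ± 0.09. At day 4 Plvap to Cdh5 stood at 99.1% of control with overlap (exact p = 0.9), and Abcb1a to Cdh5 stood at 51.6% (exact p = 0.1), or -0.90 with the 4-gene denominator against -0.96. Without overlap at day 4 were also Slco1a4 (49.5%), Tjp1 (77.2%) and Pecam1 (84.3%, exact p = 0.1 each). Mfsd2a (44.6%), Ocln (75.3%), Cldn5 (91.8%) and Esam (91.8%) overlapped.

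**Figure D4:**
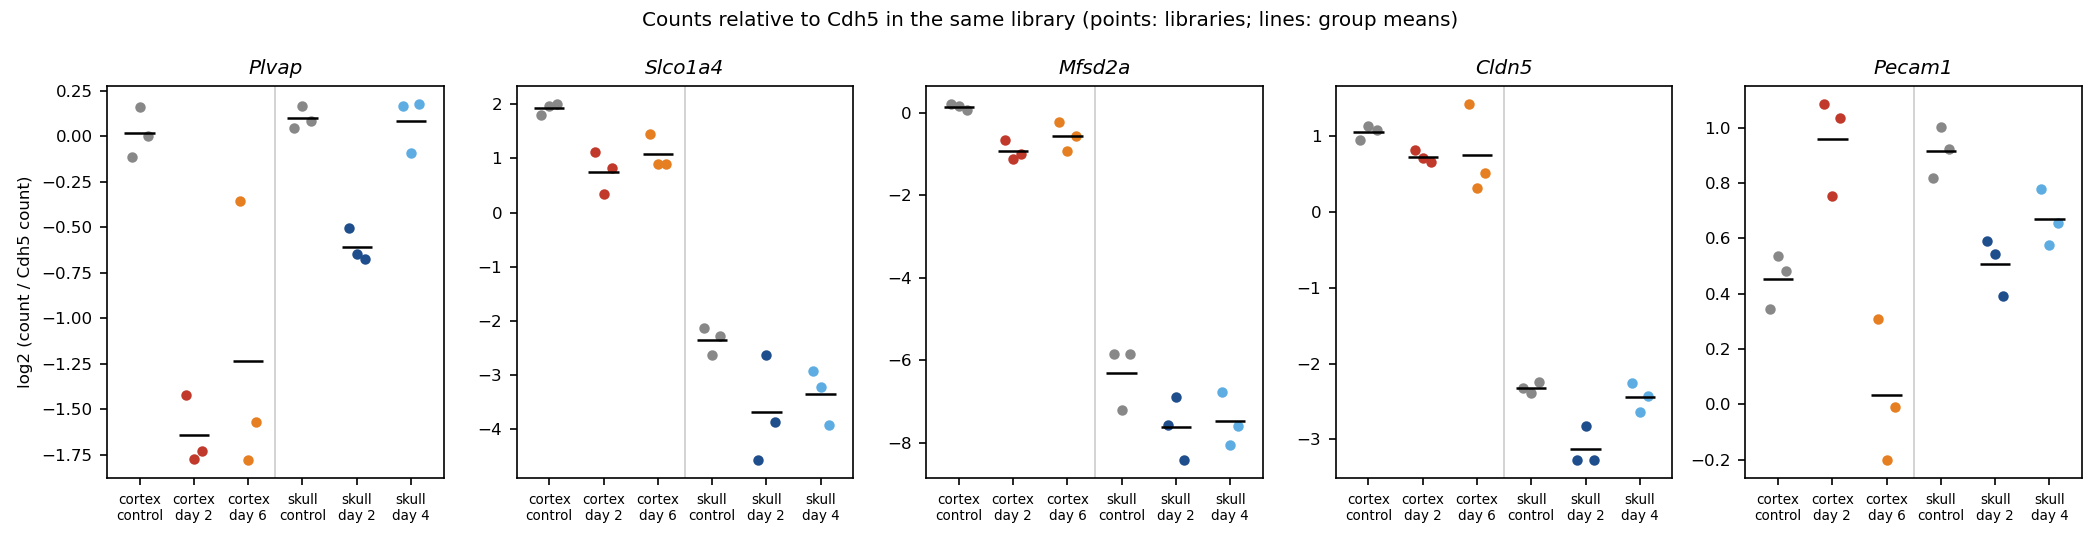
Log2 of the ratio of counts to Cdh5 (y axis) in each of the 18 libraries (points) with group means (lines), for Plvap, Slco1a4, Mfsd2a, Cldn5 and Pecam1. In cortex the ratio of Plvap lay between -0.11 and 0.16 in controls and between -1.77 and -1.42 at day 2, and in skull at day 2 it lay between -0.68 and -0.50.

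Near copies of the transporters could share reads with them, and how the counting treated such reads is not given in the sources used here. Abcb1b, which encodes another P-glycoprotein of the mouse, rose in cortex at day 2 from 5.84 ± 0.94 to 12.2 ± 1.18 CPM (log2 change 1.06 ± 0.22, adjusted p = 0.00323), in the same direction as Abcb1a. In skull at day 2 it rose from 11.9 ± 1.81 to 19.5 ± 2.33 CPM (0.72 ± 0.16, adjusted p = 0.00655) while Abcb1a fell. Abcb4, a phospholipid pump of the same family, fell there by 0.90 (adjusted p = 0.00764) and was not called in cortex. Slco1a5, a close relative of Slco1a4, was near the limit of detection in cortex controls, at 0.0695 ± 0.0636 CPM, and measured 1.24 ± 0.207 at day 2. Slco1a6 did not pass the filter on low counts in any comparison, and Slco1a1 was not analysed here.

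By the root mean square difference of log2 CPM, centred on each gene over the 9 cortex libraries, the genes nearest to Cldn5 among 12402 were Ephb4, a receptor of venous endothelium (0.0824), Fgd5, an endothelial exchange factor (0.137), and Shmt1, an enzyme of one-carbon metabolism (0.137), where the median gene stood at 0.482. Ephb4 measured 5.66 ± 0.22 CPM in controls, 9.59 ± 2.32 at day 2 and 8.92 ± 0.50 at day 6. The genes nearest to Plvap were Uqcc2 (0.0652), Tmub1 (0.0713) and Atp5d (0.0757), against a median of 0.322. Uqcc2 and Atp5d serve mitochondrial respiration, and Atp5d measured 135 ± 11.8 CPM in controls, 96.6 ± 13.2 at day 2 and 113 ± 14.4 at day 6. These likenesses are descriptions over 9 libraries of shared depth and normalisation.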

How the data were processed

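RNA was sequenced from 18 libraries with a poly(A) selection and an NEBNext kit, as paired reads, per the labels' protocols; HISAT2 2.1.0 and the mm10 build are named in the submitters' processing notes. The deposited table holds raw counts per gene made by the authors. Which program and annotation produced the counts, and whether strand was used, is not given in the sources used here. Of 26783 lines, 865 surplus identical copies of a name were removed. Counts were tested per tissue over 9 libraries in edgeR 4.0.16 (R 4.3.3; filterByExpr, TMM, robust quasi-likelihood fit), with Benjamini-Hochberg adjustment over all genes tested and calls at 0.05. The interaction used 12 libraries and the controls 6. Errors beside log2 changes are standard errors, those beside levels SDs. Ratios to Cdh5 used a pseudocount of 0.5. The fit was tested on simulated data in which few genes were changed and all others were set equal between the groups. Far more genes were called in the real data, so the shares that follow describe that setting only. It recovered 57.6% to 59.2% of 2-fold changes in cortex and 47.5% to 48.5% in skull. Between controls it recovered 38.4%, and in the interaction 19.6%. Of the genes called there, 2.33% to 6.57% were false. A member that was not called is not shown to be unchanged.

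Alternatives were DESeq2 1.42.0 and its size factors, limma 3.58.1 (voom), no filter, library sizes without 7 haemoglobin genes and the 20 most abundant genes, the compared groups alone, a replicate block, and each library left out. The members and the 17 lists (147 of 150 listed genes were in the table) were chosen with earlier results of these data known. All 10 members were named, and of each list up to 4 genes with the smallest p where any was called, with those against its direction; Slco1c1 and Slc2a1 in the controls, and Tek and Tie1 in skull at day 2, were named after their values were seen. Likeness was measured among genes whose cortex mean reached 5 CPM. The values of 1 listed gene are not reported here.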

Additional observations from a re-analysis of the deposited data

Results flagged for a closer look

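The day 2 response differed between cortex and skull, by the interaction of tissue and injury in edgeR, for 5 of the 10 genes. On the log2 scale the response in cortex exceeded that in skull by 1.98 for Pecam1, 1.55 for Cldn5, 1.42 for Abcb1a, 1.08 for Cdh5 and 0.60 for Tjp1, where the median over all genes was 0.20. Groups of 3 libraries are too small for a test of single outlying libraries.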

How the results depend on the processing

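Of the counts of members called 98 of 108 alternatives stayed within 1.5 times the value reported, of the ratios to Cdh5 235 of 252 moved by less than 1 SD, and of the changes of single members 1001 of 1079 kept their direction and side of the threshold. Members called at day 6 in cortex, 4 as reported, ran from 1 to 5 as single libraries were left out. Members called at day 4 in skull, 1 as reported, numbered 0 with the replicate block (Abcb1a, adjusted p = 0.0817 in edgeR) and 0 to 1 without single libraries. Same-numbered libraries deviated with correlations of -0.06 to 0.32 in cortex and -0.50 to 0.17 in skull, 4 of 9 in each above 0.1. These values cannot show whether equal numbers share an animal or day, and the labels do not say. With the block the member counts over the 8 comparisons were 7, 4, 1, 3, 0, 2, 6 and 7 (cortex day 2, day 6, day 6 against 2, skull day 2, day 4, day 4 against 2, interaction, controls).

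The changes of single members that reversed under any alternative had not been called. The ranges that follow are over all alternatives of a comparison, left-out libraries included. Slco1a4 in cortex at day 2 ran from -0.0217 to 0.0772. Against day 2 in cortex at day 6, Cldn5 ran from -0.35 to 0.0664 and Cdh5 from -0.39 to 0.0855. In skull at day 2 Ocln ran from -0.24 to 0.60 (-0.00045 with limma voom), Esam from -0.16 to 0.0875 and Tjp1 from -0.0806 to 0.11. At day 4 Ocln ran from -0.28 to 0.13 and Pecam1 from -0.10 to 0.11 (-0.0181 with DESeq2 size factors, -0.0180 with DESeq2, -0.0297 with the compared groups alone and -0.0121 with trimmed library sizes). From day 2 to day 4 in skull Slco1a4 ran from -0.12 to 0.85, Cdh5 from -0.00080 to 0.15, Ocln from -0.69 to 0.14, Mfsd2a from -0.25 to 0.65 and Abcb1a from -0.21 to 0.14. The interaction of Plvap ran from -0.0589 to 0.23. With the 4-gene denominator the skull day 2 ratios of Tjp1, Pecam1 and Esam turned to 0.31, 0.0737 and 0.22, and signs also changed, within 1 SD, for Ocln in skull at day 2 (0.26), Esam in cortex at day 2 (0.0229) and Plvap in skull at day 4 (0.0434). The cause was not tested.

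Over all genes, 1853 were called at day 4 in skull, against 2834 with DESeq2, 765 with the block, 1004 with the compared groups alone and 10 to 2537 without single libraries, the lowest without control replicate 3. Leaving out libraries moved 1872 called at day 6 in cortex to between 1005 and 2091, 2099 against day 2 to between 910 and 1948, 3772 from day 2 to day 4 in skull to between 2260 and 3057, and 3313 in the interaction to between 2185 and 3978. Mfsd2a in skull rested on 6 to 28 reads per library.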
